A study of Mus musculus with 124 samples.

Results

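Transcripts of 9 genes of DNA replication and proliferation were followed in mice whose ovulation was induced with human chorionic gonadotropin (hCG), and in unexposed controls (Ctrl). The set holds the 6 subunits of the MCM helicase (Mcm2, Mcm3, Mcm4, Mcm5, Mcm6 and Mcm7), the sliding clamp Pcna, the topoisomerase Top2a and the proliferation antigen Mki67. They were taken by symbol from the RNA tables of blastocysts, oocytes and the dorsal dentate gyrus (dDG) of offspring. All 9 were present in each table, of 25239 gene symbols in blastocysts, 27015 in oocytes and 24409 in dDG, and all 9 passed the low-count filter in each. In the hCG group, females in natural estrus received 7.5 IU of hCG intraperitoneally with no PMSG before it. For the Ctrl oocytes, estrous females were each caged with a vasectomised male; how the females that gave the blastocysts and offspring were mated is not given in the sources used here. Metaphase II oocytes were collected 14 h after hCG, or from plugged Ctrl females the next morning, so mating and the time since ovulation differed between the oocyte groups. Blastocysts came from uteri flushed at embryonic day 3.5, and dDG came from offspring aged 8 weeks, perfused under tribromoethanol. The labels name no strain and give no sex for the embryos or the offspring, and they do not say whether samples of a group came from separate females or litters, so a p-value measures the spread between samples.

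The MCM helicase is loaded on origins of replication before S phase, which licenses each origin to fire once per cycle, and it then unwinds DNA ahead of the fork. Pcna encircles DNA and holds the polymerases on the template. Top2a untangles replicated chromosomes and rises towards mitosis, and Mki67 coats mitotic chromosomes and is the standard mark of cycling cells. In the blastocyst, cells of the inner cell mass and the trophectoderm cycle fast, whereas the ovulated oocyte is arrested at metaphase II and carries stored maternal transcripts, and in the adult dentate gyrus few cells divide.

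Values are given in CPM, a gene's share of the library total scaled in the same way in every library. The blastocyst libraries, 28 hCG and 28 Ctrl, held 4263369 to 9259357 and 3043231 to 10859379 estimated reads, and 13549 ± 335 and 12968 ± 798 detected genes (SD, n = 28 each). In the oocyte libraries, 6 a group, there were 4174886 to 5346134 counts in hCG and 2379861 to 6924189 in Ctrl. The dDG libraries, also 6 a group, held 15931294 to 17307306 and 14991584 to 17859654 expected counts. Markers of trophectoderm, inner cell mass and primitive endoderm were detected in the blastocysts, and the 8 markers of cumulus and granulosa cells summed to at most 0.718 CPM in a hCG and 2.42 CPM in a Ctrl blastocyst. In oocytes Fshr, Foxl2, Ptx3 and Inha had no count in any library, and the symbol Amh was absent from the oocyte genes. The aromatase gene Cyp19a1 was detected in every oocyte library, at 15.6 to 23.6 CPM in hCG and 13.1 to 21.9 CPM in Ctrl, and made up most of the list's sum of 15.6 to 23.6 CPM in hCG and 13.7 to 22.3 CPM in Ctrl. At a minimum of 50 CPM for each, Xist and Y-linked transcripts were found together in 5 hCG blastocyst libraries and in 0 Ctrl libraries, and the members called below are given with and without those 5. Libraries of both groups held Y-linked transcripts with Xist below that minimum, up to 23.3 CPM of Xist in hCG library 15 and 19.2 CPM in Ctrl library 7. The labels do not say whether a library holds 1 embryo or oocyte or several, and in bulk RNA fewer cells of a type and less RNA per cell cannot be told apart.

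Top2a and Mki67 fell in hCG blastocysts, whereas no MCM subunit and not Pcna passed the test. Of the 9 members 0 were higher and 2 lower at an adjusted p under 0.05 (limma, adjusted by Benjamini-Hochberg over the 10850 genes tested), against 8.68% of all genes tested higher and 7.57% lower. The counts were also 0 and 2 with edgeR and with DESeq2 on estimated reads, and 2 members passed at an unadjusted p under 0.05, against 30.7% of all genes. Across the tested genes, the median log2 fold change was 0.023.

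Top2a ranged from 61.6 to 228 CPM in hCG blastocysts with a median of 132.8, against 115 to 293 CPM in Ctrl blastocysts with a median of 184. The groups overlapped, yet 24 of 28 hCG libraries lay below the Ctrl median, and the 10 lowest of all 56 libraries were hCG. Top2a averaged 135 ± 47.5 CPM in hCG and 193 ± 51.8 CPM in Ctrl (SD, n = 28 each), a log2 fold change of -0.58 ± 0.12 (SE; limma, adjusted p = 9.61e-04). That change corresponds to 0.669 of the Ctrl level on the scale of CPM plus 1.

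Mki67 ran from 26.2 to 187 CPM in hCG blastocysts, with a median of 87.0, and from 56.4 to 371 CPM in Ctrl blastocysts, with a median of 123. Below the Ctrl median lay 27 of 28 hCG libraries. The high end of the Ctrl group was set by libraries 13 and 22, at 371 and 239.5 CPM, and hCG library 27 was the exception in its group. The mean of Mki67 was 86.0 ± 30.0 CPM in hCG and 132 ± 59.3 CPM in Ctrl (SD, n = 28 each), and the log2 fold change was -0.63 ± 0.13 (SE; limma, adjusted p = 0.00100).

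**Figure D1:**
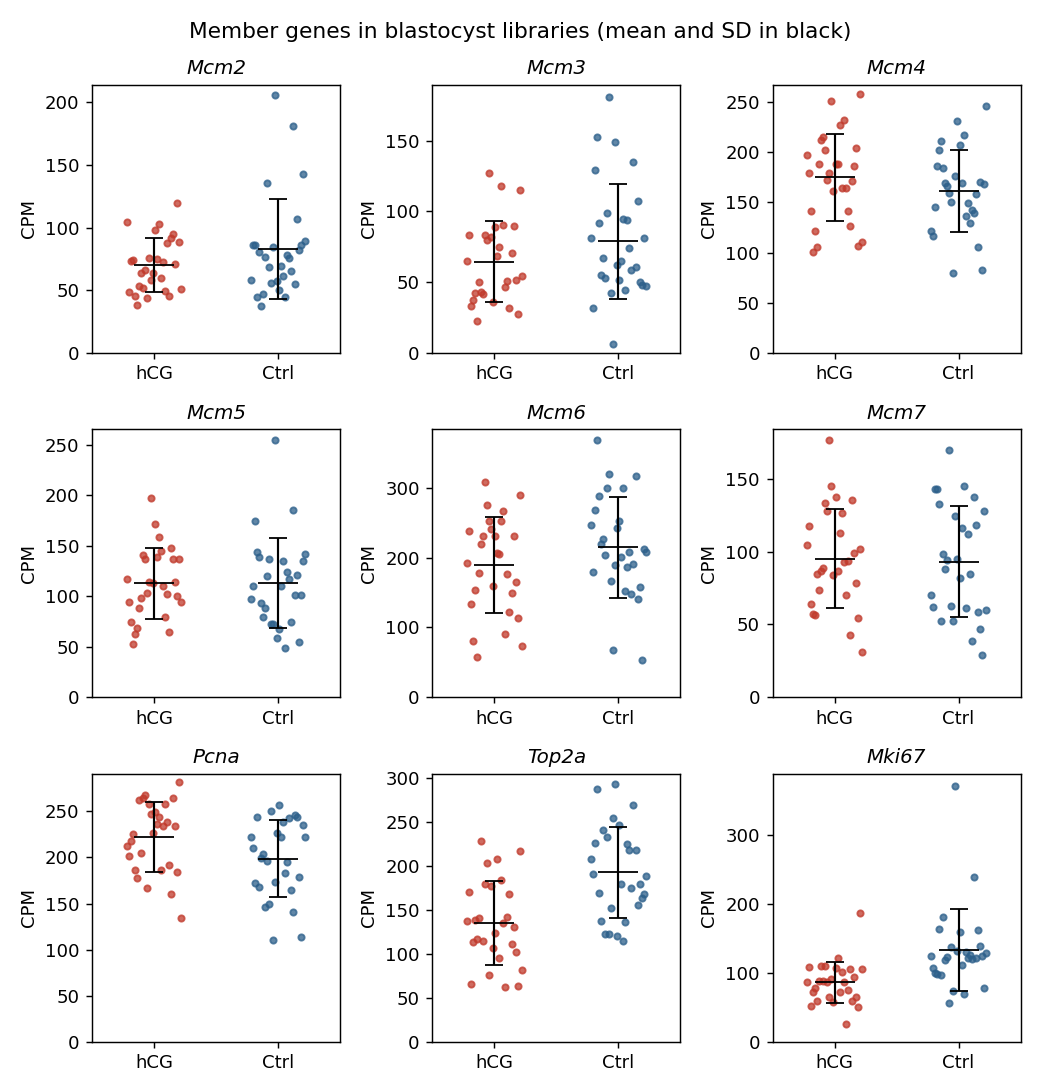
CPM of the 9 members in each blastocyst library, hCG left of Ctrl, 28 libraries each, with mean and SD in black. Top2a and Mki67 sit lower in hCG (135 ± 47.5 and 86.0 ± 30.0 CPM) than in Ctrl (193 ± 51.8 and 132 ± 59.3 CPM), and the other 7 genes overlap widely.

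Without the 5 hCG libraries that hold at least 50 CPM of both Xist and Y-linked transcripts, Top2a was -0.53 (limma, adjusted p = 0.00641) and Mki67 -0.58 (adjusted p = 0.00694) on the log2 scale. The number of detected genes also moved with the group, as given above. With it as a covariate, the log2 fold changes were -0.57 for Top2a (adjusted p = 0.00509) and -0.68 for Mki67 (adjusted p = 0.00297). On deposited values with no scaling to the library total, where the median log2 fold change of all genes was 0.49 (0.023 with scaling), Top2a was at -0.15 (adjusted p = 0.540) and Mki67 at -0.21 (adjusted p = 0.393). Over all genes tested, 3655 were then higher and 15 lower, against 942 and 821 with scaling. Both members lay below the median of 0.49, a difference that was not tested.

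A ratio within a library does not depend on the scaling, and the ratio to Pcna, chosen after seeing the data, is given with no test. The log2 ratio of Top2a to Pcna averaged -0.79 ± 0.58 in hCG and -0.061 ± 0.53 in Ctrl blastocysts (SD, n = 28 each), with 25 of 28 hCG libraries below the Ctrl median. For Mki67 the same ratio averaged -1.43 ± 0.57 in hCG and -0.65 ± 0.62 in Ctrl, with 26 of 28 below. Most hCG libraries thus lay on the low side for both genes. The MCM subunits moved less against Pcna, by -0.057 for Mcm4 at the small end and -0.38 for Mcm3 at the large end. Pcna itself had a log2 fold change of 0.14 in blastocysts, which lowers all of these ratios. Not set against Pcna, Mcm4 and Mcm7 had positive log2 fold changes, 0.083 and 0.031.

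Markers of the embryo's cell types moved as well, and their part in these results was not tested. Of the 8 trophectoderm markers 2 were lower and 0 higher in hCG blastocysts, and their summed level ran from 2204 to 8520 CPM in hCG and from 1713 to 11941 CPM in Ctrl. Eomes, a transcription factor of trophoblast stem cells, averaged 43.7 ± 21.7 CPM in hCG and 72.3 ± 45.4 CPM in Ctrl, and the trophoblast factor Gata2 35.8 ± 19.4 and 56.6 ± 18.5 CPM. Of the other 6, Krt8, Krt18 and Elf5 had negative log2 fold changes, while Gata3 (0.39), Tfap2c (0.35) and Cdx2 (0.081) had positive ones, and none of these was called. Among the 8 markers of inner cell mass and epiblast only Nanog passed the test, higher in hCG (242 ± 122 CPM, against 160 ± 86.0 CPM in Ctrl; log2 fold change 0.58 ± 0.19, adjusted p = 0.0313), and the summed level of the list was 300.3 to 1066 CPM in hCG and 312 to 918 CPM in Ctrl. Of 5 tested markers of primitive endoderm 1 was higher, the cubilin partner Amn (3.86 ± 3.58 CPM in hCG, 1.24 ± 1.81 CPM in Ctrl), while Gata4 (-0.55), Sox17 (-0.64), Pdgfra (-0.44) and Gata6 (-0.052) had negative log2 fold changes and were not called. The list of 6 summed to 73.6 to 188 CPM in hCG and 53.6 to 327 CPM in Ctrl. No marker of these 3 lists was at 0 in every blastocyst library.

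The promoters of Top2a and Mki67 are shown because these genes moved together. On GRCm38.p6 the gene Top2a spans chromosome 11 from 98992947 to 99024199 and Mki67 chromosome 7 from 135689784 to 135716450. Mcm3 and Mcm6 lie on chromosome 1, Pcna on 2, Mcm7 on 5, Mcm2 on 6, Mcm5 on 8 and Mcm4 on 16. Genes that peak in G2 and mitosis are known to be held down outside those phases by the DREAM complex at a short element called CHR, read here as TTTGAA, often beside CCAAT boxes bound by NF-Y. Genes of licensing and S phase are known for E2F sites, read here as TTTCCCGC, TTTGGCGC, TTTCGCGC or TTTGCCGC. Both strands of the 250 bases before the start in each promoter entry were searched, and matches in capitals may overlap each other. Among the printed genes, that start lies inside the annotated span for Top2a, Mki67 and Mcm5, so the searched bases run past the printed ones. Sequences are from RefSeq on GRCm38.p6 and are printed 5′ to 3′ on the gene's strand as far as they lie outside its annotated span, with Mcm5 and Mcm6 as examples of licensing genes. Capitals mark the CHR element, the CCAAT box or an E2F octamer, each in either orientation.
Top2a (chr11:99024200-99024439, minus strand): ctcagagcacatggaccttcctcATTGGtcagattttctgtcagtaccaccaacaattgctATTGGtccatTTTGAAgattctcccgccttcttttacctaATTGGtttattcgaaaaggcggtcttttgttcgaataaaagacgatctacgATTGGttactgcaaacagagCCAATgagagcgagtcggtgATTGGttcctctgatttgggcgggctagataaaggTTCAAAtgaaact
Mki67 (chr7:135716451-135716629, minus strand): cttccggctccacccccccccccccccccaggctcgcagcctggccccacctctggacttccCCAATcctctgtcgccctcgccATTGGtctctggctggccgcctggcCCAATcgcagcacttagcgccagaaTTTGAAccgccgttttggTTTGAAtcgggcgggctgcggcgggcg
Mcm5 (chr8:75109259-75109467, plus strand): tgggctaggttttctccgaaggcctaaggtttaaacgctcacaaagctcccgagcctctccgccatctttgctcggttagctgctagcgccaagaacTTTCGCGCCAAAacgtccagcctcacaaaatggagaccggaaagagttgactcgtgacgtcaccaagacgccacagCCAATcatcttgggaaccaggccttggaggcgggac
Mcm6 (chr1:128359706-128359955, minus strand): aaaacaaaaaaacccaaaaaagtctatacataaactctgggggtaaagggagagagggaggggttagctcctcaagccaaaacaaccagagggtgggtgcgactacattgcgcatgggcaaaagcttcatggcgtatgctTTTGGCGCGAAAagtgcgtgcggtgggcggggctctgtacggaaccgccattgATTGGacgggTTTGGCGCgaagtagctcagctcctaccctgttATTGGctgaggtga

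Positions are counted from the start in the promoter entry, not from the end of the printed bases. Top2a held 2 TTTGAA matches, starting at -179 and -23, and 6 CCAAT matches. In Mki67, 2 TTTGAA matches at -116 and -98 stood next to 3 CCAAT matches, and neither gene held an E2F octamer. Overlapping E2F matches were present in Mcm5 at -153 and -149 and in Mcm6 at -110 and -106, with another in Mcm6 at -47 and 1 in 1 of the 2 Mcm7 entries. TTTGAA stood in 3 of the 8 members with an entry (Mcm2 is the third), against 15.99% of all 32851 promoter entries, an E2F octamer in 3 of 8 against 1.86%, and CCAAT in 8 of 8 against 33.85%. The members were counted by gene, with a match in either Mcm7 entry enough, and the background by entry, so the units differ. A match is a description of the letters, not a test of binding.

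The helicase subunits and Pcna kept wide overlap between the groups in blastocysts. Mcm2, whose tail carries parental histones at the fork, averaged 70.2 ± 21.5 CPM in hCG and 82.5 ± 40.0 CPM in Ctrl, a log2 fold change of -0.20 ± 0.13 (SE; limma, adjusted p = 0.302). Its highest values, 206 and 181 CPM, were those of Ctrl libraries 13 and 22, the same libraries that led the Ctrl group for Mki67. Mcm3 was the most scattered subunit, with a coefficient of variation of 44.15% in hCG and 51.5% in Ctrl, and means of 64.5 ± 28.5 and 79.0 ± 40.7 CPM.

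For Mcm4, Mcm6 and Mcm7, which form the catalytic core, the means were 175 ± 43.8, 189 ± 68.8 and 95.2 ± 34.0 CPM in hCG, against 162 ± 41.3, 215 ± 72.6 and 93.2 ± 38.3 CPM in Ctrl. Their log2 fold changes were 0.083 ± 0.095, -0.23 ± 0.15 and 0.031 ± 0.14 (SE; limma, adjusted p = 0.588, 0.284 and 0.914). With the number of detected genes as a covariate, Mcm6 passed the test as lower in hCG (-0.47, adjusted p = 0.0354). Mcm5, which with Mcm2 forms the gate through which DNA enters the ring, had the closest means, 113 ± 35.0 and 113 ± 44.4 CPM (log2 fold change -0.0016 ± 0.13, adjusted p = 0.995).

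Pcna was the least scattered member, at 134 to 282 CPM with a median of 230.3 in hCG blastocysts and 111 to 257 CPM with a median of 202 in Ctrl blastocysts. Its mean was 222 ± 37.7 CPM in hCG and 199 ± 42.0 CPM in Ctrl, and the log2 fold change was 0.14 ± 0.079 (SE; limma, adjusted p = 0.216). On deposited values with no scaling, Pcna and Mcm4 passed the test as higher in hCG, at 0.58 (adjusted p = 0.0159) and 0.52 (adjusted p = 0.0340), near the median of 0.49 of all genes. The 95% intervals of the log2 fold changes bound what a missed call can hide: the lowest bound among the MCM subunits was -0.62 (Mcm3) and the highest 0.31 (Mcm7), and Pcna lay between -0.013 and 0.29.

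Within each group, the members did not vary as 1 block. Correlations of log2(CPM + 1) were computed for 36 pairs in hCG and 36 in Ctrl blastocysts (n = 28 libraries each), with permutation p-values adjusted over all 72. Libraries share their depth and scaling across genes, so a common error can add to each r. In hCG blastocysts 15 pairs passed, 10 of them among the 15 pairs of MCM subunits, whose median r was 0.64. Mcm4 and Mcm6 had the highest, with r = 0.78 (rho = 0.72; permutation test, adjusted p = 2.4e-04, the raw p being the smallest the permutations can give; r = 0.69 without the 2 libraries farthest from the Mcm4 median). None of the 5 pairs of Mcm2 with another subunit passed in hCG, with r between 0.17 and 0.43.

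In Ctrl blastocysts 8 pairs passed by r, 7 of them among the MCM subunits, whose median r was 0.30. Mcm6 and Mcm7 led, at r = 0.69 (rho = 0.70; permutation test, adjusted p = 5.76e-04; r = 0.66 without 2 libraries). Mcm2 and Mcm5 were at r = 0.58, and Mcm2 and Pcna ran opposite, at r = -0.46 (rho = -0.43; permutation test, adjusted p = 0.0438), a value that was -0.28 without the 2 libraries farthest from the Mcm2 median and so rests on them. By rho, with adjusted p under 0.05 as well, 6 of those 8 pairs held.

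Top2a and Mki67 tracked each other in hCG blastocysts, with r = 0.77 (rho = 0.74; permutation test, adjusted p = 2.4e-04; r = 0.70 without 2 libraries). The hCG libraries 20, 26 and 3 were the 3 lowest for both genes. In Ctrl blastocysts r was 0.37 (rho = 0.26; permutation test, adjusted p = 0.134); the difference between the 2 values of r was not tested. With the MCM subunits, Top2a and Mki67 had a median r of 0.32 in hCG, where 3 of 12 pairs passed (Mcm6 with both genes and Mcm3 with Mki67), and of -0.058 in Ctrl, where 0 of 12 passed.

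**Figure D2:**
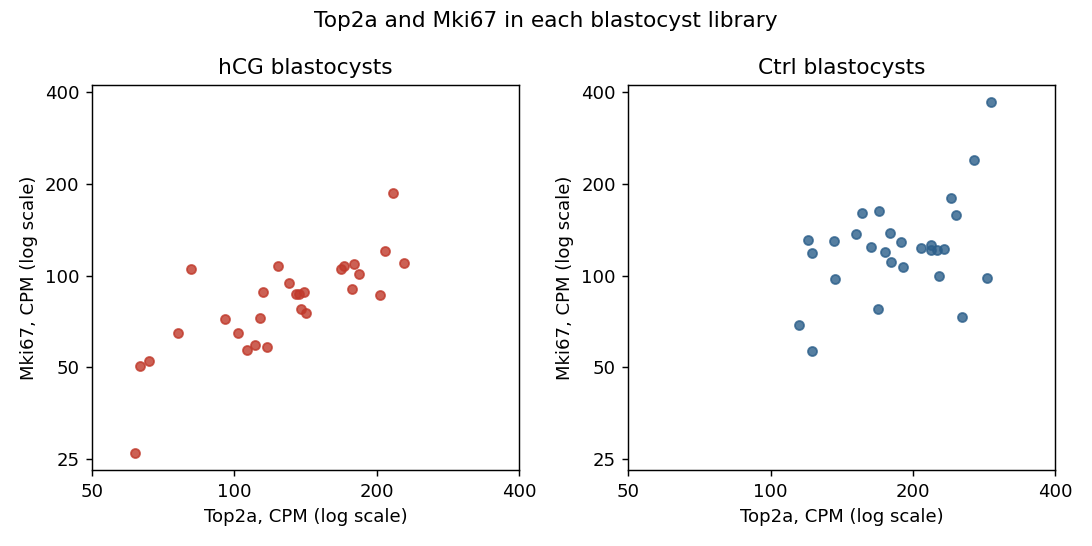
Top2a against Mki67, both in CPM on log axes, in 28 hCG (left) and 28 Ctrl (right) blastocyst libraries, 1 point a library. The hCG points run along a line (r = 0.77) with 3 libraries at the low end of both genes, and the Ctrl points are more scattered (r = 0.37).

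**Figure D3:**
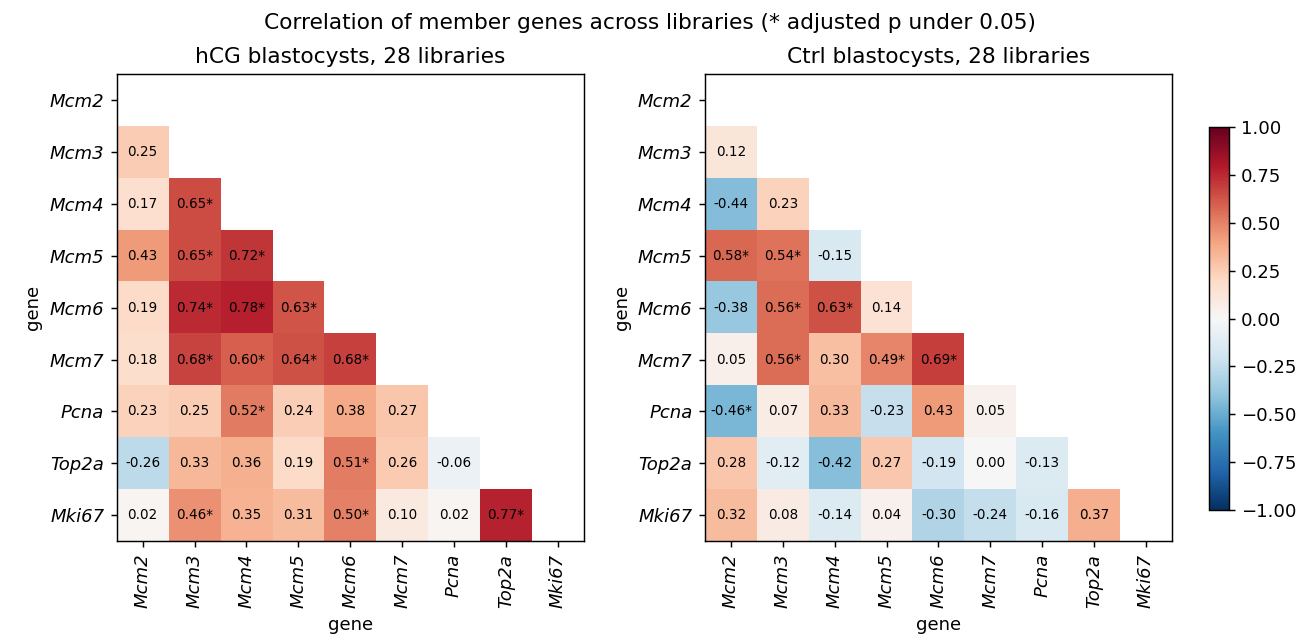
Pearson r of log2(CPM + 1) for each pair of members in hCG (left) and Ctrl (right) blastocysts, 28 libraries each, with a star where the adjusted p is under 0.05. In hCG, 15 of 36 pairs pass, 10 of them between MCM subunits; in Ctrl, 8 of 36 pass.

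Members were also set against Cdkn1a, which codes for the p21 inhibitor that stops cells before S phase, against depth and against the number of detected genes, in 54 relations. After adjustment 0 passed, by r or by rho (permutation test, lowest adjusted p = 0.224 and 0.173). The r of a member with Cdkn1a ran from -0.45 (Mcm2) to -0.0042 (Mcm7) in hCG, and from -0.34 (Top2a) to 0.31 (Mcm5) in Ctrl (n = 28 each). By rho, Top2a in Ctrl was at -0.54 (permutation test, adjusted p = 0.173). Without the 2 libraries farthest from the Cdkn1a median, r was -0.61 for Top2a in Ctrl and -0.26 for Mcm2 in hCG.

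The 10 other genes whose level followed the mean of the members most closely over the 56 blastocyst libraries, each group centred on its own mean and 7684 genes ranked, were led by the mitochondrial chaperone Hspa9 (r = 0.80). Then came the coat protein gene Copg1 (r = 0.77), the chaperonin Hspd1 (r = 0.76), Copb2 (r = 0.74), the RNA-binding protein gene Hnrnpf (r = 0.74), the segregase Vcp (r = 0.73), the ribosome assembly factor Nop56 (r = 0.72), the fatty acid oxidation enzyme Hadha, the recombination factor Rad54l (r = 0.72 each) and the tRNA synthetase Eprs (r = 0.72). None of the 10 was called between hCG and Ctrl, with adjusted p between 0.0692 and 0.891 (limma). The mean of the members is itself closest to Mcm3 (r = 0.82) and Mcm6 (r = 0.78), and farthest from Pcna (r = 0.23) and Mcm2 (r = 0.32). Each member is part of that mean, which raises its r and favours the more scattered members, so these values are not comparable with those of the 10 genes.

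Other genes of replication and the cell cycle were grouped in 8 lists of 139 genes. The lists were chosen with earlier results of these data known, so their shares are descriptive. In blastocysts 135 were tested, 13 were higher and 18 lower in hCG (22.96%, against 16.2% of all genes tested in either direction), and their median log2 fold change was -0.045. Among 13 genes of origin recognition and licensing, 0 were higher and 2 lower. Geminin (Gmnn), which blocks licensing after S phase has begun, averaged 176 ± 24.5 CPM in hCG and 209 ± 48.1 CPM in Ctrl (log2 fold change -0.26 ± 0.090, adjusted p = 0.0381). Mcmbp, which binds MCM subunits off DNA, averaged 121 ± 34.2 and 172 ± 55.0 CPM and 27 of 28 hCG libraries were below the Ctrl median (-0.51 ± 0.12, adjusted p = 0.00254).

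Of 15 origin firing genes, 1 was higher, Gins3 of the helicase's GINS partner (0.42 ± 0.14), and 3 were lower: Dbf4, the activating subunit of the kinase that fires origins (-0.36 ± 0.094), Topbp1 (-0.38 ± 0.10) and Clspn (-0.41 ± 0.14), both of the checkpoint at the fork. Among 26 polymerase and fork genes 4 were higher and 3 lower, so the list moved both ways. Pold2, a subunit of polymerase delta, averaged 113 ± 31.0 CPM in hCG and 63.2 ± 28.7 CPM in Ctrl (0.89 ± 0.15, adjusted p = 1.41e-04), and Pola2, of the priming polymerase, rose by 0.64 ± 0.18. Rpa3, of the single-strand binding complex, was at -0.50 ± 0.14, and Uhrf1, which brings the maintenance methyltransferase to new DNA, at -0.52 ± 0.13 (limma, adjusted p under 0.05 for each gene of this paragraph).

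Of 30 genes listed under G2 and mitosis 0 were higher and 6 lower in hCG blastocysts, against 8.68% and 7.57% of all genes tested. Of their log2 fold changes 23 of 30 were negative, with a median of -0.15, whereas 53.1% of those of all genes tested were positive. Hmmr, a spindle protein, averaged 101 ± 19.3 CPM in hCG and 131 ± 35.8 CPM in Ctrl, and all 28 hCG libraries lay below the Ctrl median (-0.39 ± 0.095, adjusted p = 0.00402). Tpx2, which activates Aurora A on the spindle, was at -0.39 ± 0.097, the kinetochore motor Cenpe at -0.34 ± 0.092 and Anln, of the cleavage furrow, at -0.35 ± 0.084 (limma, adjusted p = 0.00452, 0.00781 and 0.00342). The mitotic kinase Cdk1 and the second topoisomerase Top2b were the other genes of the list that fell. Top2b is counted only by its place in the list, and whether its level marks G2 or mitosis was not tested.

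In the remaining lists, Cdkn1a was the only one of 5 tested kinase inhibitors that was called. It averaged 302 ± 153 CPM in hCG and 162 ± 89.2 CPM in Ctrl blastocysts with 27 of 28 hCG libraries above the Ctrl median (1.00 ± 0.21, adjusted p = 0.00124). Of 17 tested genes of replication stress and damage response 5 were higher and 4 lower; the p53 target Ccng1 was at 0.54 ± 0.13, and Brca1, of homologous recombination, at -0.71 ± 0.13, averaging 24.4 ± 9.49 CPM in hCG and 38.4 ± 12.6 CPM in Ctrl (adjusted p = 2.36e-04). The kinase Wee1, which delays mitosis, was at -0.51 ± 0.13 and the checkpoint kinase Atr at -0.44 ± 0.13. The kinase Cdk4 (0.31 ± 0.10) was the only one called of 20 tested G1/S genes, and the deaminase Dctd (0.48 ± 0.13) the only one of 9 genes of nucleotide supply (limma, adjusted p = 0.0315 and 0.0126).

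In oocytes, whose stored transcripts include all 9 members, 0 were called in either direction, against 1.33% of 9565 genes tested higher and 2.67% lower (edgeR quasi-likelihood test, adjusted p under 0.05). DESeq2 and limma also called 0. At an unadjusted p under 0.05, 5 members passed, against 18.9% of all genes tested. Pcna lay at 98.3 to 135 CPM with a median of 109.8 in hCG oocytes, and at 79.8 to 96.4 CPM with a median of 87.9 in Ctrl oocytes. Its groups did not overlap, as for 3.03% of all genes tested, and the log2 fold change was 0.34 ± 0.13 (SE; edgeR, adjusted p = 0.150).

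Mcm2 was 169 to 224 CPM with a median of 189 in hCG oocytes and 110 to 193 CPM with a median of 150.3 in Ctrl oocytes, so that all 6 hCG libraries were above the Ctrl median although the ranges overlapped (0.40 ± 0.14, adjusted p = 0.127). Mcm3 was 20.9 to 31.9 CPM (median 25.7) in hCG and 9.97 to 22.5 CPM (median 17.002) in Ctrl, again with 6 of 6 above (0.65 ± 0.23, adjusted p = 0.127). Mcm6 stood the other way, at 46.0 to 69.7 CPM (median 57.2) in hCG and 49.7 to 91.7 CPM (median 74.4) in Ctrl, with 6 of 6 below (-0.37 ± 0.16, adjusted p = 0.195). None of these 3 passed the test. Set against Pcna within each library, the log2 ratio of Mcm6 averaged -0.98 ± 0.23 in hCG and -0.28 ± 0.28 in Ctrl oocytes, and that of Mcm4 1.04 ± 0.16 in hCG and 1.42 ± 0.13 in Ctrl, with no overlap for Mcm4 (0.81 to 1.31 in hCG, 1.33 to 1.61 in Ctrl). The ratio of Top2a to Pcna did not overlap either, at -0.18 to 0.149 in hCG and 0.154 to 0.72 in Ctrl oocytes. Both ratios carry the difference of Pcna, which itself did not overlap between the oocyte groups. In CPM the groups overlapped for Mcm4 and Top2a, with log2 fold changes of -0.044 and -0.13. The share of all genes whose ratio to Pcna does not overlap was not computed.

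Mki67 was 136 to 274 CPM with a median of 207 in hCG oocytes and 81.4 to 272 CPM with a median of 114 in Ctrl oocytes. All 6 hCG libraries were above the Ctrl median, and the one high Ctrl library was number 4, at 272 CPM. With all libraries the log2 fold change was 0.57 ± 0.24 (SE; edgeR, adjusted p = 0.206); without Ctrl library 4 it was 0.87 and passed the test (adjusted p = 0.0102). Top2a, at 110.2 ± 11.97 CPM in hCG and 119 ± 10.2 CPM in Ctrl (SD, n = 6 each), Mcm4, Mcm5 and Mcm7 had adjusted p between 0.640 and 0.946. Mcm5 was covered by 9 to 41 counts in a hCG and 11 to 51 in a Ctrl library, which limits its precision (log2 fold change 0.063 ± 0.35).

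Of the other replication and cell cycle genes 124 were tested in oocytes, 3 were higher and 3 lower (4.84%, against 3.99% of all genes tested in either direction). Ticrr, which loads the helicase activator Cdc45, averaged 204 ± 43.0 CPM in hCG and 100.1 ± 28.4 CPM in Ctrl oocytes (1.03 ± 0.17, adjusted p = 0.00167). Gmnn (0.65 ± 0.18) and the ligase Lig1 (0.66 ± 0.17) were higher too. The ubiquitin-conjugating enzyme Ube2c, which works with the anaphase-promoting complex, averaged 29.1 ± 7.74 and 90.7 ± 31.3 CPM (-1.65 ± 0.22, adjusted p = 1.57e-04), and Aurkb (-1.48 ± 0.34) and Dnmt1 (-0.78 ± 0.19) were the other two lower genes (edgeR, SE, n = 6 each).

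In the dDG of offspring 1 member was higher and 0 lower, against 4.67% of 13874 genes tested higher and 3.19% lower (edgeR quasi-likelihood test, adjusted p under 0.05). Top2a lay at 1.68 to 2.54 CPM with a median of 1.98 in hCG dDG, and at 0.840 to 1.44 CPM with a median of 1.22 in Ctrl dDG. Its groups did not overlap, as for 4.5% of all genes tested. The values rest on 29 to 44 reads in a hCG and 15 to 25 reads in a Ctrl library.

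The log2 fold change of Top2a was 0.78 ± 0.20 (SE; edgeR, adjusted p = 0.0306), with means of 2.01 ± 0.336 CPM in hCG and 1.18 ± 0.235 CPM in Ctrl (SD, n = 6 each). The call sits near the threshold: leaving out hCG library 1, 2 or 6 or Ctrl library 1, 2 or 6 gave adjusted p between 0.0528 and 0.0698, with log2 fold changes between 0.70 and 0.82. On the scale of log2(CPM + 1), which compresses low values, limma gave 0.47. Against Pcna in the same library, the log2 ratio of Top2a averaged -4.20 ± 0.22 in hCG and -5.04 ± 0.28 in Ctrl dDG, with 6 of 6 hCG libraries above the Ctrl median. Pcna itself had a log2 fold change of -0.064, which adds to that ratio.

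Markers of other dDG cells moved with the group, and their part in the Top2a result was not tested. Of 6 markers of oligodendrocyte precursors, the main dividing cells of adult brain outside the neurogenic niche, 3 were higher in hCG and none was at 0, and the list summed to 183 to 213 CPM in hCG and 146 to 200.2 CPM in Ctrl. Cspg4, a surface proteoglycan of these cells, averaged 18.5 ± 2.49 CPM in hCG and 13.3 ± 1.01 CPM in Ctrl, with 6 of 6 hCG libraries above the Ctrl median (0.49 ± 0.093, adjusted p = 0.00602). Olig1 and Olig2 were the others called, and Pdgfra (-0.020), Sox10 (-0.074) and Gpr17 (0.065) were not. Of 7 microglial markers 3 were higher, with the list at 258 to 328 and 225 to 285 CPM, and of 6 markers of granule neurons 2 were higher, with the list at 975 to 1210 CPM in hCG and 661 to 1063 CPM in Ctrl. Of the 9 tested markers of neural stem cells and progenitors 0 were called. Their summed level was 159 to 197 CPM in hCG and 160.2 to 188 CPM in Ctrl. Over all genes tested in dDG, 4.67% were higher and 3.19% lower, so 0 of 9 is near the general share. Choroid plexus and ependymal markers summed to 37.1 to 9626 CPM in hCG, with library 6 at the top, and to 32.4 to 117 CPM in Ctrl; without that library Top2a had an adjusted p of 0.0566.

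The other members were not called in dDG. Mki67 was 2.31 to 4.27 CPM with a median of 3.71 in hCG and 2.46 to 3.86 CPM with a median of 3.47 in Ctrl, with full overlap (0.055 ± 0.19, adjusted p = 0.891). Mcm7 was 12.5 to 18.5 CPM (median 13.7) in hCG and 11.1 to 14.1 CPM (median 12.3) in Ctrl, with 6 of 6 hCG libraries above the Ctrl median (0.25 ± 0.11, adjusted p = 0.171). Mcm6, at 55.2 ± 3.66 CPM in hCG and 49.0 ± 10.9 CPM in Ctrl, had 1 low Ctrl library, number 6 at 29.9 CPM. For Mcm2, Mcm3, Mcm4, Mcm5 and Pcna the log2 fold changes lay between -0.064 (Pcna) and 0.14 (Mcm2 and Mcm5). With Pcna, 6 of 6 hCG libraries lay below the Ctrl median although the ranges overlapped (edgeR, adjusted p = 0.650). Mcm5 is read as 2 RefSeq transcripts in this table, and the share given to each varied between libraries, so it was used as their sum.

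Of the other replication and cell cycle genes 115 were tested in dDG, 3 were higher and 3 lower (5.22%, against 7.86% of all genes tested in either direction). Racgap1, of the spindle midzone, averaged 12.3 ± 1.53 CPM in hCG and 7.90 ± 1.203 CPM in Ctrl (0.66 ± 0.12, adjusted p = 0.00494), and the helicase Recql4 3.02 ± 0.502 and 1.60 ± 0.406 CPM (0.93 ± 0.20, adjusted p = 0.0130). Rpa1 rose by 0.20 ± 0.056. Cyclin D2 (Ccnd2), which drives G1 in adult neural progenitors, averaged 67.8 ± 7.87 CPM in hCG and 101.6 ± 5.45 CPM in Ctrl with 6 of 6 hCG libraries below the Ctrl median (-0.57 ± 0.076, adjusted p = 5.62e-04). Lig1 (-0.45 ± 0.12) and the origin recognition subunit Orc2 (-0.22 ± 0.060) were lower too (edgeR, SE, n = 6 each).

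**Figure D4:**
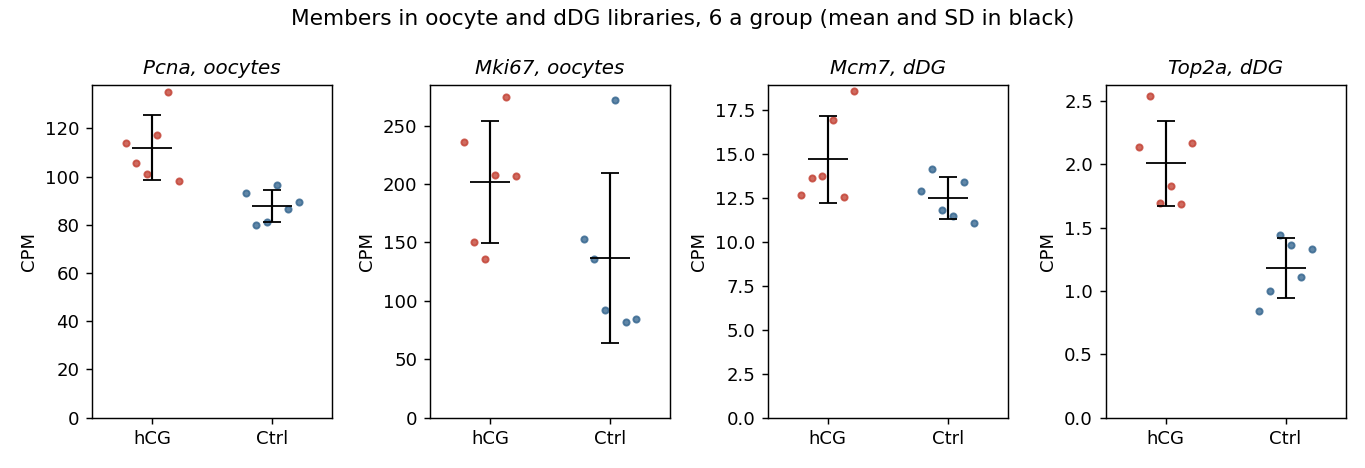
CPM of Pcna and Mki67 in oocytes and of Mcm7 and Top2a in dDG, hCG left of Ctrl, 6 libraries each, with mean and SD in black. The groups do not overlap for Pcna in oocytes (98.3 to 135 and 79.8 to 96.4 CPM) and for Top2a in dDG (1.68 to 2.54 and 0.840 to 1.44 CPM), and 1 high Ctrl library stands out for Mki67 in oocytes.

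Whether the hCG difference itself varied between materials was tested with a Wald test of the log2 fold changes, both from limma on log2(CPM + 1). Between blastocysts and oocytes 3 of 9 members passed, against 15.1% of the 7178 genes tested in both. Mki67 differed by -1.28 ± 0.27 (SE; adjusted p = 1.40e-04), with -0.63 in blastocysts and 0.65 in oocytes. For Mcm2 the difference was -0.61 ± 0.19 (adjusted p = 0.0180) and for Mcm3 -0.91 ± 0.30 (adjusted p = 0.0208), each with a negative value in blastocysts and a positive one in oocytes. Top2a, lower in blastocysts, missed the threshold for its difference from oocytes (-0.45 ± 0.17, adjusted p = 0.0583).

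Between blastocysts and dDG 2 of 9 members passed, against 13% of the 9341 genes tested in both. Top2a was -0.58 in blastocysts and 0.47 in dDG on this scale, a difference of -1.05 ± 0.17 (SE; adjusted p = 4.65e-07). Mki67 was -0.63 in blastocysts and 0.029 in dDG, a difference of -0.66 ± 0.19 (adjusted p = 0.0100). Pcna, Mcm4, Mcm5, Mcm6 and Mcm7 passed neither test. The materials also differ in library type, depth and number of libraries, which cannot be told apart from the stage.

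**Figure D5:**
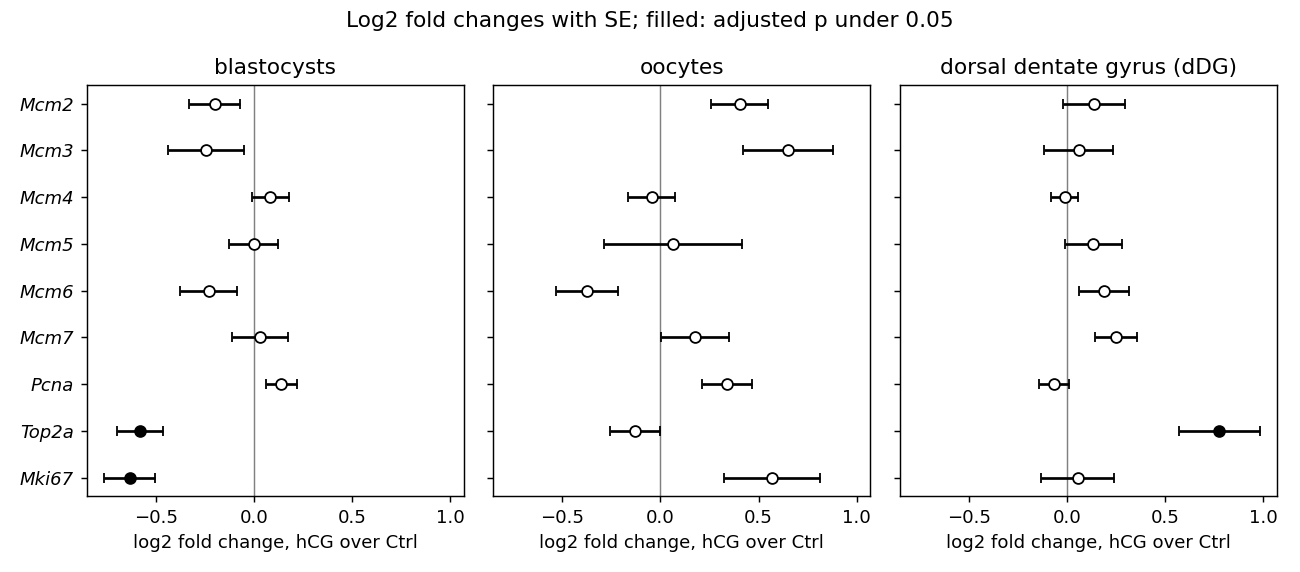
Log2 fold changes, hCG over Ctrl, of the 9 members in blastocysts (28 libraries a group), oocytes and dDG (6 a group each), with SE as bars and filled points where the adjusted p is under 0.05. Top2a and Mki67 lie left of 0 in blastocysts (-0.58 and -0.63), and the only filled point right of 0 is Top2a in dDG (0.78).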

How the data were processed

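RNA tables of 80 mouse samples were used, and the other 44 samples, bisulfite libraries, were not analysed here. The deposited oocyte table holds counts per gene symbol. The deposited dDG table holds expected counts per transcript, which were summed by gene and rounded. The deposited blastocyst table holds a signal that looks like counts times 1 factor for each library: 89.0% to 93.46% were whole multiples (tolerance 0.005) of a step of 39.29 to 244.49. Division by the step gave estimated reads, and division by the column total removed the factor. Per the submitters' processing notes, STAR 2.7.6a, TopHat, HTSeq 0.12.4 and the builds mm10 and GRCm38 were used, with no role given. Symbols turned into dates (24 in oocytes and 25 in dDG) stayed unread, and none is a member. Of the value columns 0 could not be matched to a sample.

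Blastocysts were tested with limma 3.58.1 (trend, robust) on log2 of TMM-normalised CPM plus 1. For oocytes and dDG the test was the robust quasi-likelihood F test of edgeR 4.0.16 with TMM, in all tables after edgeR's low-count filter (10 counts, 15 in total) in R 4.3.3. All tests were two-sided. Benjamini-Hochberg adjustment of the p-values of hCG against Ctrl ran over all genes of a table, of those between tables over the genes tested in both, and of correlations over the relations computed, at a threshold of 0.05. The fits of hCG against Ctrl were also run on simulated counts with a common dispersion for all genes. Such counts lack the gene-specific scatter of these data, so that run does not vouch for any single call. Fold changes are hCG over Ctrl; errors are SE for fold changes and SD for means. The SE of edgeR was taken from the F statistic, and 95% intervals as 1.96 SE either way. Correlations used 100000 permutations. Scripts used Python with pandas and scipy. Intervals cover the spread between samples, and depth limits low genes such as Top2a in dDG.

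Named genes were the 9 members, up to 4 called genes of each list per table by smallest adjusted p, the most abundant member where none passed, the 10 genes most like the members' mean (at least 10 CPM) and Cdkn1a. Not all are printed, and Cdk1 and Top2b were added after their values were seen, to complete a list. The members and lists were chosen with earlier results of these data known. Alternatives were other pseudocounts, scalings, filters and tools, covariates, left-out libraries and the replicate number as a block. Same-numbered libraries of the 2 groups did not deviate together (correlations of -0.213 to 0.169 in blastocysts, -0.188 to 0.21 in oocytes and -0.157 to 0.138 in dDG), so the numbers were not taken as pairs.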

Additional observations from a re-analysis of the deposited data

Results flagged for a closer look

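Mcm4 in dDG had 1 library far from the others of its group. Ctrl library 1 was the lowest, at 13.16 CPM, with the other five Ctrl libraries at 14.14 to 14.44 CPM, so that its gap made up 0.768 of the whole range. It was 1 of 36 sets of 6 libraries looked at (9 members in oocytes and dDG, each group apart). The threshold for a flag is one that chance passes in about 1 in 20 sets.

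The hCG difference of 4 members varied between materials by a test of the difference itself (limma fits, Wald test, Benjamini-Hochberg). Blastocysts minus oocytes gave -0.6093 for Mcm2, -0.9092 for Mcm3 and -1.281 for Mki67 on the log2 scale. Blastocysts minus dDG gave -1.053 for Top2a and -0.662 for Mki67.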

How the results depend on the processing

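In blastocysts, Top2a and Mki67 kept their call under 12 of 13 alternatives each. The exception was the deposited signal with no scaling to the library total, which gave 2 members higher (Mcm4 and Pcna) and 0 lower; the median of all genes was then 0.49, against 0.023 with scaling. In oocytes 0 members were called under every alternative except without Ctrl library 4, or without Ctrl libraries 2 and 4, where Mki67 passed and 1 member was higher. Leaving out each library in turn gave 0 to 1 members higher in oocytes and 0 to 1 in dDG. Top2a in dDG kept its direction under all 19 alternatives but lost its call under 8 of them (adjusted p up to 0.100). The count of members higher was then 0: with no low-count filter, with the replicate block and without each of 6 single libraries. The replicate block, fitted although the numbers do not pair the samples, gave 0.78 for Top2a in dDG and changed no other member's call. The cause of these changes was not tested.

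Over all genes, counts moved by more than 1.5 times from 942 higher and 821 lower in blastocysts to 576 higher with edgeR, 337 and 437 with detected genes as a covariate, and 480 lower without the 5 libraries with at least 50 CPM of both Xist and Y-linked transcripts. In oocytes, from 127 and 255, they were 265 and 430 with DESeq2, and 70 to 292 and 167 to 365 over left-out libraries. In dDG, from 648 and 443, they were 712 lower with DESeq2, 388 and 195 with the replicate block, 420 higher on the most abundant transcript, and 395 to 684 and 254 to 547 over left-out libraries.

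Without TMM factors, 17 pairs of members in hCG and 11 in Ctrl blastocysts correlated past the threshold, in place of 15 and 8. Depth limits the low members: Top2a in dDG (15 to 44 reads) and Mcm5 in oocytes (9 to 51 counts). Covariates for depth, and leaving out the blastocyst libraries with few detected genes, were chosen after seeing the data, and left the calls of the 9 members as they were.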
